A study of Homo sapiens with 12 samples.

Results

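In LNCaP prostate cancer cells of the sh_scramble line, DHT gave 1 call higher and 2 lower among 14 antigen presentation genes. Over all genes, 5.45% were called higher and 6.45% lower. The sh_TMEFF2 cells gave a different response for B2M and NLRC5. B2M, which encodes the light chain shared by class I molecules, rose 1.99-fold with DHT in the sh_scramble cells, from 208 ± 7.26 to 413 ± 19.6 CPM (counts scaled to library size; SD, n = 3). NLRC5, the transcriptional activator of class I genes, fell there to 0.212 times its level, from 5.31 ± 0.965 to 1.12 ± 0.468 CPM. Neither change was called in the sh_TMEFF2 cells. Among 29 tested interferon-stimulated genes, DHT in the sh_scramble cells gave 1 call higher and 6 lower. The shares of all genes there were 5.45% and 6.45%. Most interferon-stimulated genes were not called in any comparison. With DHT in the sh_TMEFF2 cells 1 member was called (OAS3, higher), when 3.28% of all genes were called higher. IFIT1, IFIT2 and IFIT3 were high in the third repeat of both sh_scramble groups.

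The genes described are 44 named genes of the interferon and MHC class I systems, 14 of antigen presentation and 30 interferon-stimulated, out of 34643 gene symbols in the deposited table. They were chosen by name for their function, with earlier results of these data known. All 14 antigen presentation genes and 29 of the 30 interferon-stimulated genes passed the filter on low counts, which left 15419 genes. OAS2, with 1 to 17 counts per library, did not pass and has no test.

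LNCaP is an established line from a lymph node metastasis of prostate carcinoma that responds to androgen. All 12 cultures carried a puromycin-selected lentiviral shRNA expressed from the U6 promoter, against TMEFF2 (sh_TMEFF2) or a scrambled sequence (sh_scramble), for 17 days. They were kept in hormone-depleted medium for 24 h and then given 10 nM dihydrotestosterone (DHT, the most potent natural androgen) or ethanol vehicle for 24 h. The vehicle and hormone groups are named −DHT and +DHT after the line, and each of the 4 holds 3 libraries. The 3 repeats were separate treatments that came from 2 transductions, so the spread between repeats covers treatment and handling and only in part the making of the line. The labels do not say which repeat came from which transduction or which TMEFF2 shRNA was used.

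Interferons bind receptors at the cell surface, and the kinases JAK1, JAK2 and TYK2 then activate STAT proteins, which enter the nucleus with IRF9 and switch on interferon-stimulated genes. Class I molecules carry peptides from inside the cell to its surface, where cytotoxic T cells read them. The peptides are cut by the proteasome, moved into the endoplasmic reticulum by the TAP transporter, trimmed by ERAP1 and ERAP2 and loaded with the help of tapasin onto a heavy chain bound to B2M. Interferon gamma raises most of these genes, through IRF1 and NLRC5. LNCaP cells have been described as poor responders to interferon with little JAK1.

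Stretches of DNA of the kind that interferon-activated factors read were searched in the promoters of the members. Examples are shown because members of different roles hold them, although many of the matched promoters hold neither element. The interferon-stimulated response element (ISRE) was searched by its core, GAAA, any 2 bases and GAAA again, and the gamma-activated site (GAS) as TTCNNNGAA. Both were searched on both strands in the 250 bases before the RefSeq start of each gene (GRCh38.p14). The search depends on the 1 start used per gene, and some windows, such as that of B2M, lie inside the gene as annotated elsewhere. Of the last 120 bases before the start, 120 overlapped annotated exons for TAPBP and OAS3 and 0 for ISG15. RefSeq promoters were matched for 36 of the 44 members, and HLA-E, NLRC5, IFIT2, IFITM2, OAS2, USP18, IRF3 and IRF7 were not matched. Each window of 30 bases is written 5′ to 3′ along the strand of its gene, with the matches in capitals. A pair of TTTC in capitals is the ISRE core on the other strand, and where 3 such blocks follow each other 2 matches overlap.
B2M, chr15:44711366-44711395, plus strand: actctaaGAAAAGGAAACTGAAAacgggaa
TAP1, chr6:32853816-32853845, minus strand: cggccgcTTTCGATTTCGCTTTCccctaaa
TAPBP, chr6:33314079-33314108, minus strand: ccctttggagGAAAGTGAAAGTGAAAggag
IFI27, chr14:94110625-94110654, plus strand: cagTTTCGGTTTCctgGAAAATGAAAccta
IFIT1, chr10:89392504-89392533, plus strand: tagTTTCACTTTCcccTTTCGGTTTCccta
IFIT3, chr10:89327865-89327894, plus strand: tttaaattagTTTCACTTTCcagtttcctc
IFIT5, chr10:89414513-89414542, plus strand: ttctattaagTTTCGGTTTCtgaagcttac
OAS3, chr12:112938321-112938350, plus strand: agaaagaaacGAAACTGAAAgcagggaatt
SAMD9, chr7:93118096-93118125, minus strand: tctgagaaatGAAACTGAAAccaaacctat
IRF1 (GAS), chr5:132490878-132490907, minus strand: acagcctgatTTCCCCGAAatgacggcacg

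ISRE letters stood in 19 of the 36 matched member promoters (52.8%), against 3.02% of the 35116 promoters in the table. The share was 50% among antigen presentation genes (6 of 12) and 54.2% among interferon-stimulated genes (13 of 24). GAS letters stood in 8 of 36, all of them interferon-stimulated genes, against 6.57% of all promoters. The full palindromic androgen response element, with no mismatch, was found in 0 of the 36 and in 0.0114% of all promoters, and distant elements were not searched. Of the 12 members called in some comparison, 9 had a promoter and 5 of these held ISRE letters (B2M, IFI27, IFIT5, OAS3 and SAMD9), and among the other 27 members with a promoter 14 held them. The letters therefore stood in called and in uncalled members alike, TAPBP among the latter.

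Library totals ran from 19450866 to 22612046 counts. A difference was called when the adjusted p of edgeR's quasi-likelihood test (Benjamini-Hochberg over all 15419 genes) was at most 0.05 and the fold change at least 1.5; for the response of sh_TMEFF2 to DHT minus that of sh_scramble the adjusted p alone was used. Every adjusted p below comes from that test unless DESeq2 or limma-voom is named beside it. Levels are CPM after TMM normalization, fold changes are log2 values from the fit, and ± is the SD over 3 libraries. TMEFF2 itself was at 77.8, 73.8 and 103 CPM in sh_scramble −DHT against 68.6, 39.3 and 81.7 in sh_TMEFF2 −DHT, and at 173, 117 and 169 in sh_scramble +DHT against 142, 90.1 and 114 in sh_TMEFF2 +DHT. The lines overlapped in both conditions, with log2 differences of −0.43 (SE 0.25, adjusted p = 0.503) and −0.41 (adjusted p = 0.304), so the silencing was not called at the RNA level in these libraries. By Western blot, the study reported TMEFF2 silencing in LNCaP cells with some of its TMEFF2 shRNAs. For the silencing it also cited its own TMEFF2 mRNA measurements in cells with silencing or scramble shRNAs, with and without DHT. The luminal prostate markers summed to between 5636 and 14380 CPM, highest in sh_scramble +DHT (13540 to 14380) and lowest in sh_TMEFF2 −DHT (5636 to 6174). In bulk RNA, fewer cells that express a gene and less RNA per cell cannot be told apart.

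With DHT in the sh_scramble cells, 2 of 43 members were called higher (B2M and SAMD9), when 5.45% of all genes were called higher. Another 8 were called lower (HLA-E, NLRC5, IFI27, IFIT5, MX1, UBE2L6, IRF1 and DDX58), when 6.45% of all genes were called lower. The median log2 change of the members was −0.16 against −0.01 for all genes, and 31 of 43 had a negative value. In the sh_TMEFF2 cells DHT gave 1 call higher (OAS3), at a background of 3.28%, and 0 lower, at a background of 1.6%. The members' median there was −0.10 against −0.02 for all genes, with 27 of 43 negative. At an unadjusted p under 0.05 there were 4 members higher and 7 lower in that comparison, when 14.1% and 13% of all genes were, and DESeq2 and limma-voom each called 1 lower, IRF1. By the adjusted p alone, with no fold limit, DHT in sh_scramble gave 2 members higher and 9 lower (14.4% and 12.6% of all genes), and DHT in sh_TMEFF2 gave 1 higher and 2 lower (7.84% and 5.21%).

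Between the lines without DHT no member was called in either direction, when 0.298% of all genes were called higher and 0.272% lower. At an unadjusted p under 0.05, 9 members were lower in sh_TMEFF2 and 3 higher, when 6.51% and 6.98% of all genes were. Without DHT limma-voom called 0 members and DESeq2 called 1 lower, NLRC5. With DHT, 2 members were called higher in sh_TMEFF2 (NLRC5 and OAS3; background 3.03%) and 2 lower (B2M and IFITM2; background 3.74%). The DHT response of sh_TMEFF2 minus that of sh_scramble was called for 2 members, NLRC5 in the positive direction (background 1.65%) and B2M in the negative (background 3.29%). By the adjusted p alone, 0 members passed between the lines without DHT (0.623% of all genes higher and 0.493% lower), and 4 higher and 2 lower passed with DHT (6.93% and 9.09%). The comparisons of the lines and the DHT comparisons share libraries, so they are not separate tests of a gene.

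**Figure D1:**
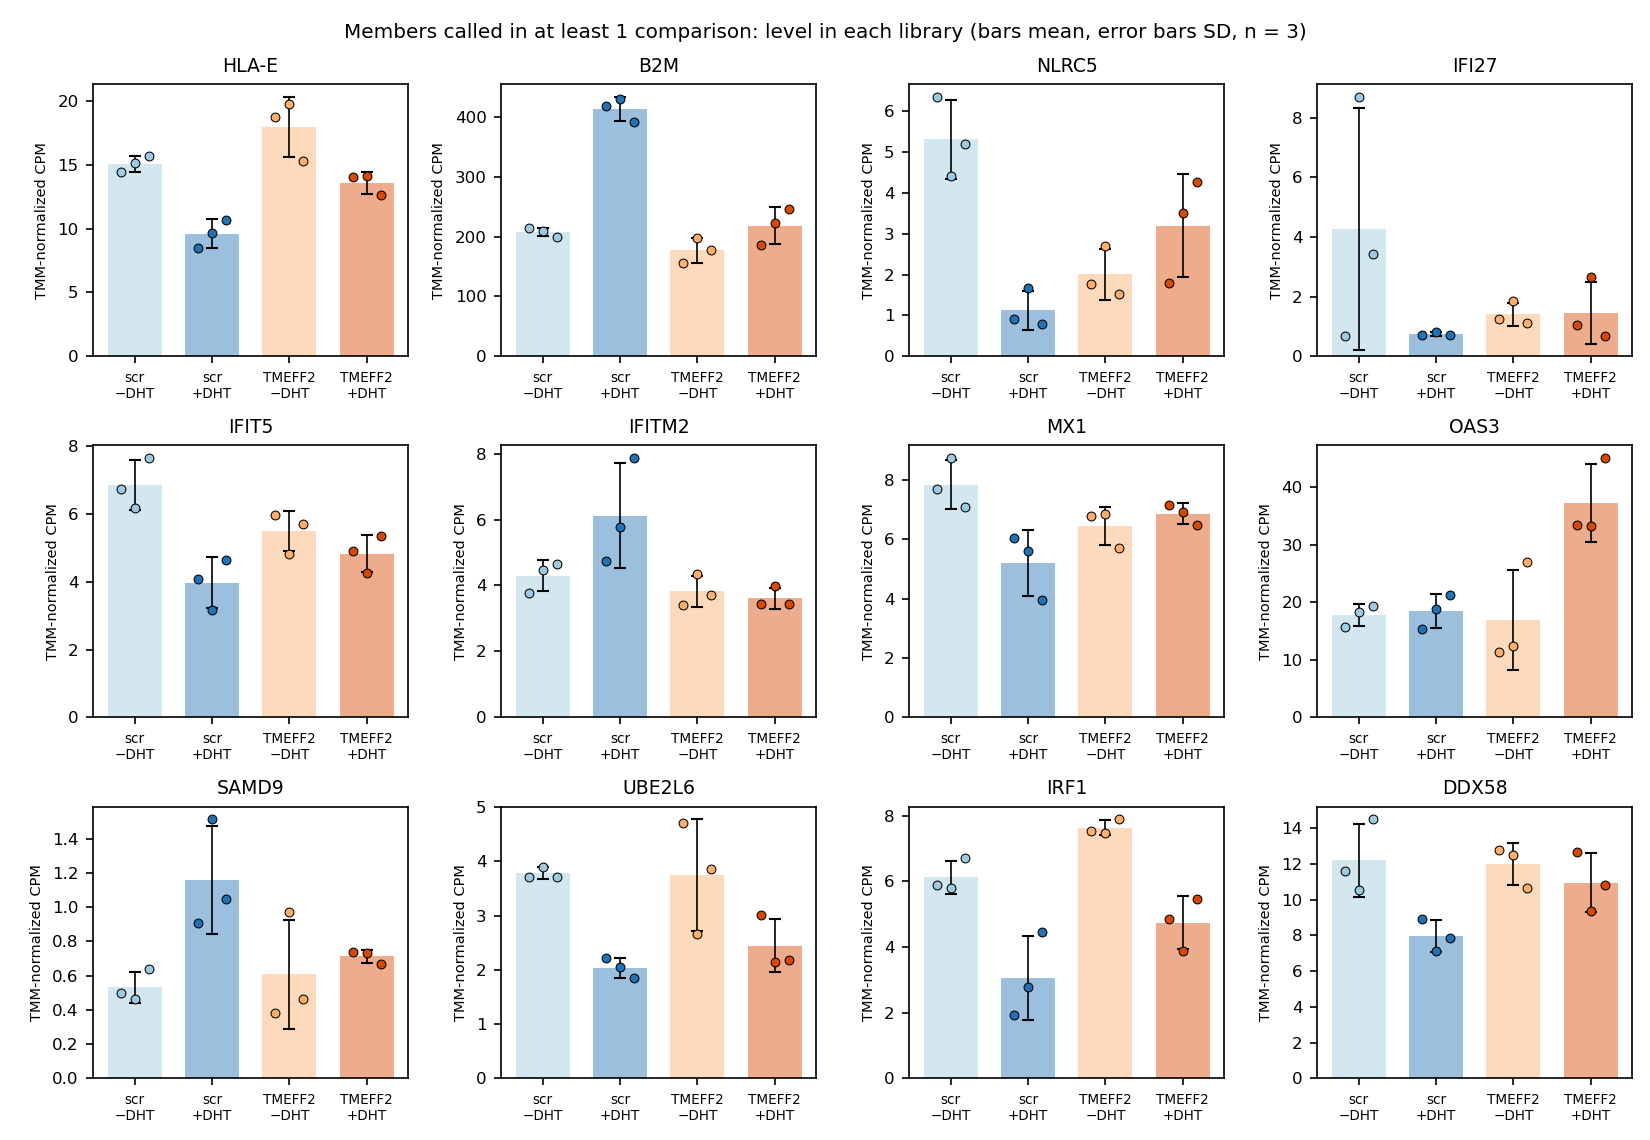
Level of the 12 members called in at least 1 comparison, in TMM-normalized CPM on the y axis, for the 4 groups on the x axis (scr is sh_scramble, TMEFF2 is sh_TMEFF2); points are libraries, bars are means and error bars are SD (n = 3). B2M stands apart in sh_scramble +DHT, where its libraries lie between 391 and 430 CPM, and NLRC5 in sh_scramble −DHT, where they lie between 4.42 and 6.34 CPM.

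Among the class I chains, B2M (chromosome 15, positions 44711358 to 44718851 of GRCh38, plus strand) was at 214, 209 and 200 CPM in sh_scramble −DHT and at 418, 430 and 391 in sh_scramble +DHT. It was at 156, 198 and 177 CPM in sh_TMEFF2 −DHT and at 186, 223 and 246 in sh_TMEFF2 +DHT. All sh_scramble +DHT libraries lay above all 9 others, and the sh_TMEFF2 groups overlapped each other. The rise with DHT in sh_scramble was 0.99 (SE 0.10, adjusted p = 1.72e-05), against 0.30 (SE 0.10, adjusted p = 0.0699) in sh_TMEFF2. The responses differed by −0.69 (SE 0.14, adjusted p = 0.0157). With DHT, B2M was lower in sh_TMEFF2 than in sh_scramble (log2 −0.92, SE 0.10, adjusted p = 6.34e-05), and without DHT the difference was −0.23 (adjusted p = 0.342). Leaving out both sh_scramble libraries numbered 3, which stand apart for other members, left the difference of the responses at −0.69 and moved its adjusted p to 0.055.

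The heavy chains did not follow B2M. HLA-E, which presents signal peptides to natural killer cells, was at 14.4, 15.1 and 15.7 CPM in sh_scramble −DHT and at 8.48, 9.62 and 10.7 in sh_scramble +DHT. It was at 18.7, 19.8 and 15.3 CPM in sh_TMEFF2 −DHT and at 14.1, 14.1 and 12.6 in sh_TMEFF2 +DHT. In both lines the vehicle and DHT libraries did not overlap, with DHT the lower. The fall in sh_scramble was −0.65 (SE 0.12, adjusted p = 0.0018) and was called, while that in sh_TMEFF2 was −0.40 (SE 0.12, adjusted p = 0.0447) and under 1.5-fold; the difference of the responses was 0.25 (SE 0.17, adjusted p = 0.52). Without sh_scramble +DHT replicate 1 the fall was −0.57 (adjusted p = 0.00899), under the fold limit. With DHT, HLA-E was 0.50 higher in sh_TMEFF2 (adjusted p = 0.0149), also under 1.5-fold.

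HLA-C, a classical heavy chain, was at 89.6, 93 and 111 CPM in sh_scramble −DHT and 80.3, 93.1 and 113 in sh_scramble +DHT. In sh_TMEFF2 it was at 88.1, 105 and 104 CPM without DHT and 76.3, 93.4 and 94 with it, so all 4 groups overlapped and its log2 values ran from −0.17 to 0.02. HLA-B, the other classical chain listed, had DHT changes of −0.20 and −0.24 in the lines, neither past the test. HLA-F, a non-classical chain with 39 to 95 counts per library, changed by −0.47 (adjusted p = 0.101) and −0.35 (adjusted p = 0.276), with vehicle and DHT libraries apart in both lines. The HLA genes are close copies of each other and vary between people, so reads can be split between them, and their values are less certain than those of B2M.

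NLRC5 (chromosome 16, positions 56989485 to 57083531, plus strand) was at 6.34, 4.42 and 5.19 CPM in sh_scramble −DHT and at 0.908, 1.66 and 0.8 in sh_scramble +DHT. It was at 1.78, 2.7 and 1.53 CPM in sh_TMEFF2 −DHT and at 1.81, 3.51 and 4.27 in sh_TMEFF2 +DHT. The sh_scramble −DHT libraries were the highest of the 12, and the sh_TMEFF2 groups overlapped. The change with DHT was −2.24 (SE 0.36, adjusted p = 0.000624) in sh_scramble and 0.67 (SE 0.35, adjusted p = 0.237) in sh_TMEFF2, and the responses differed by 2.91 (SE 0.50, adjusted p = 0.0056). Between the lines NLRC5 was −1.40 in sh_TMEFF2 without DHT, short of the threshold (SE 0.34, adjusted p = 0.0806) although the libraries did not overlap, and 2.84-fold higher with DHT (SE 0.37 on the log2 scale, adjusted p = 0.0149). The last call rests on 16 to 140 counts per library over all groups and was lost without sh_scramble +DHT replicate 1 (adjusted p = 0.0626), without sh_scramble +DHT replicate 3 (adjusted p = 0.0576) or without sh_TMEFF2 +DHT replicate 3 (adjusted p = 0.0583), with log2 values of 1.25 to 1.38.

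B2M and NLRC5 thus had their outlying group in opposite places. For B2M it was the sh_scramble cells with DHT, and for NLRC5 it was the sh_scramble cells without DHT.

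The other genes of peptide supply moved less. TAPBP, which encodes tapasin, fell with DHT in both lines, by −0.45 (SE 0.09, adjusted p = 0.00272) in sh_scramble and by −0.36 (SE 0.09, adjusted p = 0.0195) in sh_TMEFF2, and was 0.32 higher in sh_TMEFF2 with DHT (adjusted p = 0.0298). All 3 values are under 1.5-fold. Its level was 60.6 to 74.8 CPM in sh_scramble +DHT, 85.6 to 102 in sh_scramble −DHT, 81.9 to 85.9 in sh_TMEFF2 +DHT and 99.5 to 112 in sh_TMEFF2 −DHT, with no overlap between vehicle and DHT in either line. TAP1 and TAP2, the subunits of the peptide transporter, stayed between −0.16 and 0.10 in all comparisons and were not called. ERAP1 was 0.40 higher in sh_TMEFF2 without DHT (unadjusted p = 0.007, adjusted p = 0.165), with all sh_TMEFF2 libraries above all sh_scramble ones (28 to 30.9 against 19.4 to 26.2 CPM). ERAP2 spread from 1.57 to 5.62 CPM with overlap in every comparison.

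The inducible proteasome subunits were not called. PSMB9 was −0.74 in sh_TMEFF2 both without DHT (adjusted p = 0.324) and with it (adjusted p = 0.139), with no overlap of the lines, but on 10 to 26 counts per library. PSMB8 had 7 to 26 counts and changes with DHT of −0.87 (adjusted p = 0.137) and −0.46 (adjusted p = 0.528). PSMB10 stayed between 12.4 and 19.5 CPM. PSMB8 and PSMB9 overlap each other on opposite strands, PSMB9 and TAP1 do as well, and whether the libraries keep strand is not given in the sources used here, so reads in the shared parts cannot be assigned to one gene with certainty.

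**Figure D2:**
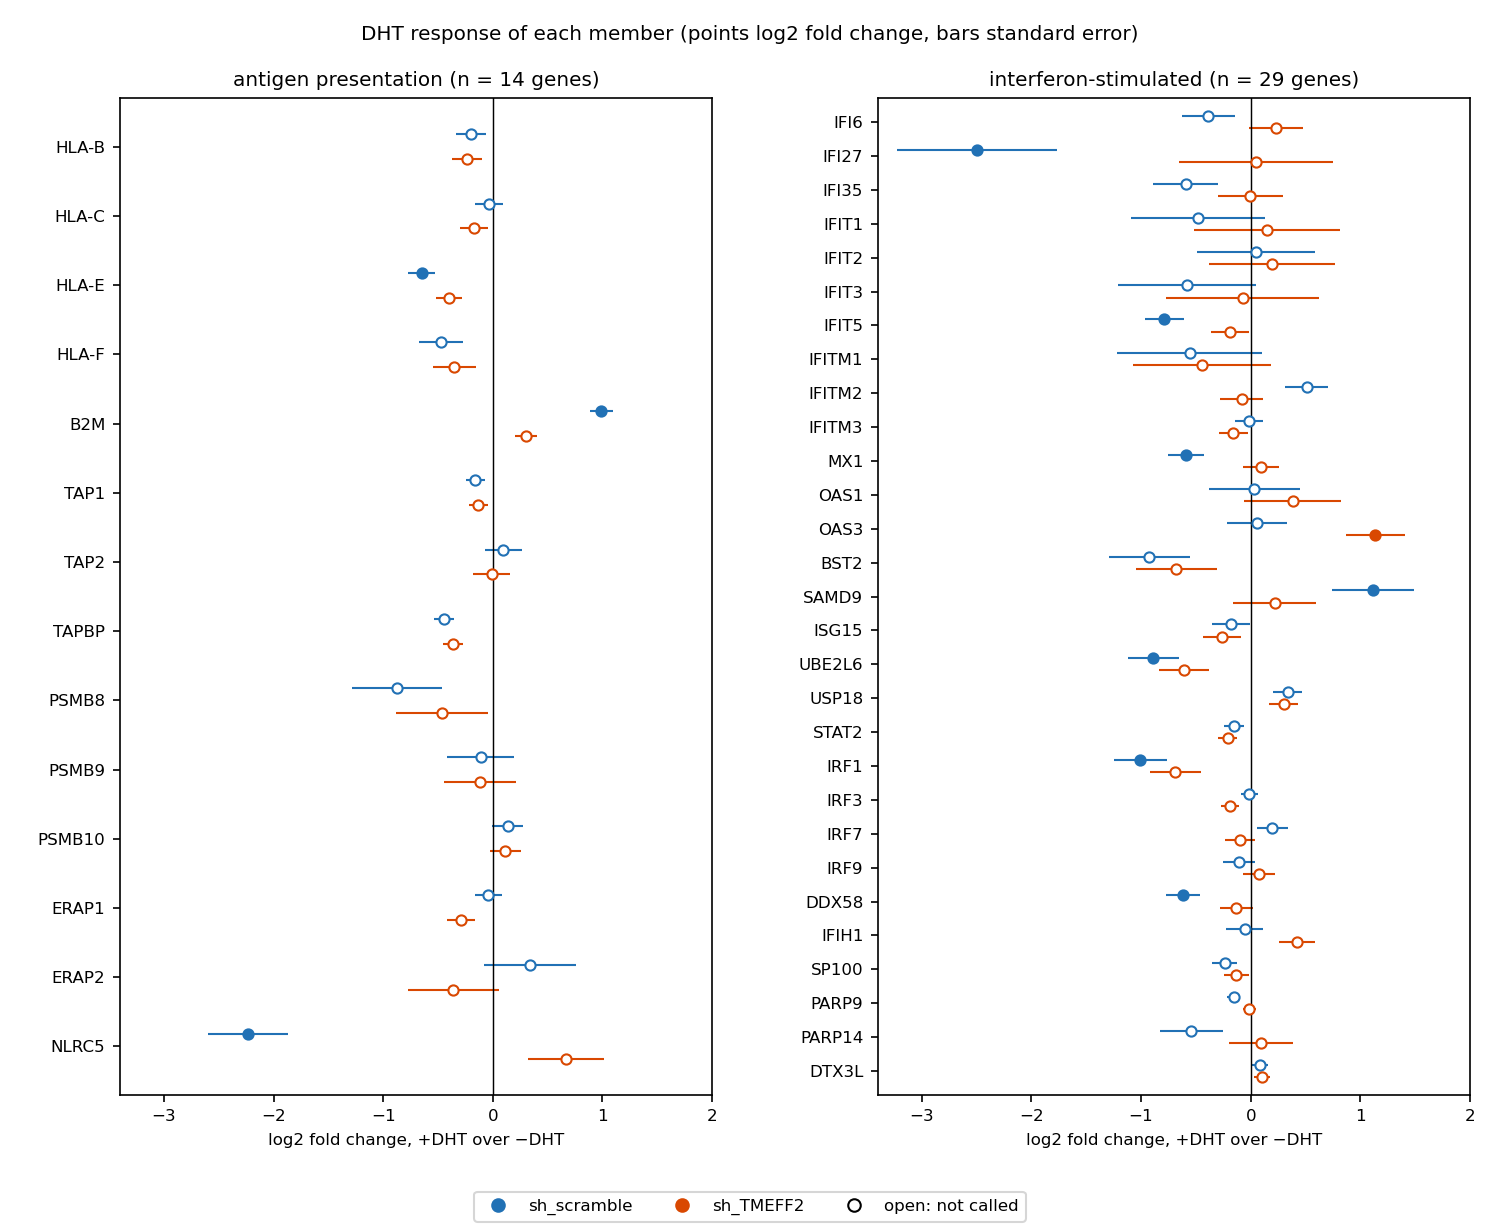
Log2 change with DHT for each tested member in sh_scramble (blue) and sh_TMEFF2 (orange), with standard errors as bars and filled points where the change was called; the left panel holds the 14 antigen presentation genes and the right panel 29 interferon-stimulated genes. The blue points reach from −2.50 (IFI27) to 1.11 (SAMD9), the orange points from −0.69 (IRF1) to 1.14 (OAS3).

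Of the effector genes, which encode proteins that act on viruses and are normally raised by interferon, 15 of 16 were tested. DHT in sh_scramble gave 3 calls lower (IFI27, IFIT5 and MX1), when 6.45% of all genes were called lower. It gave 1 call higher (SAMD9), at a background of 5.45%. In sh_TMEFF2 it gave 1 call higher (OAS3), at a background of 3.28%.

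IFIT5, a member of the RNA-binding IFIT family, was at 6.74, 6.17 and 7.64 CPM in sh_scramble −DHT and 4.09, 3.17 and 4.65 in sh_scramble +DHT. In sh_TMEFF2 it was at 5.96, 4.82 and 5.71 CPM without DHT and 4.91, 4.24 and 5.34 with it. The sh_scramble −DHT libraries were the highest of the 12 and the sh_TMEFF2 groups overlapped, while with DHT the sh_scramble libraries lay below all sh_TMEFF2 −DHT ones. The change was −0.79 (SE 0.17, adjusted p = 0.00507) in sh_scramble and −0.19 (adjusted p = 0.54) in sh_TMEFF2, and the difference of the responses, 0.60 (SE 0.25, adjusted p = 0.213), was not called. The sh_scramble fall stayed called in each fit with 1 library left out.

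MX1, a dynamin-like GTPase that blocks influenza and other viruses, was at 7.69, 8.73 and 7.1 CPM in sh_scramble −DHT and 6.06, 5.61 and 3.95 in sh_scramble +DHT. It was at 6.78, 6.86 and 5.71 CPM in sh_TMEFF2 −DHT and 7.18, 6.94 and 6.5 in sh_TMEFF2 +DHT. DHT and vehicle did not overlap in sh_scramble and did in sh_TMEFF2. The changes were −0.59 (SE 0.17, adjusted p = 0.0191) and 0.09 (adjusted p = 0.777), and their difference was 0.68 (SE 0.23, adjusted p = 0.133). The sh_scramble call was lost without sh_scramble −DHT replicate 2 (−0.51, adjusted p = 0.0718) or sh_scramble +DHT replicate 3 (−0.43, adjusted p = 0.0639). MX1 overlaps the androgen-induced protease gene TMPRSS2 on the opposite strand, and TMPRSS2 changed with DHT by 2.97 in sh_scramble (adjusted p = 0.000743) and 0.70 in sh_TMEFF2 (adjusted p = 0.368). A part of these reads in the MX1 value was not tested.

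IFI27, a small mitochondrial and nuclear envelope protein that is a sensitive interferon reporter, was at 0.679, 8.68 and 3.43 CPM in sh_scramble −DHT and 0.706, 0.83 and 0.7 in sh_scramble +DHT. It was at 1.25, 1.86 and 1.11 CPM in sh_TMEFF2 −DHT and 1.06, 2.65 and 0.668 in sh_TMEFF2 +DHT. The sh_scramble −DHT libraries spanned from below to far above every sh_scramble +DHT library, so the groups overlapped. The fitted change was −2.50 (SE 0.73, adjusted p = 0.0232), but it was −1.45 (adjusted p = 0.14) without sh_scramble −DHT replicate 2, the library at 8.68 CPM. The call was also lost when any 1 of the sh_scramble +DHT libraries was left out, with adjusted p of 0.0657, 0.0639 and 0.0657, and under limma-voom (−1.78, adjusted p = 0.169).

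OAS3, which makes the 2′-5′ oligoadenylates that activate RNase L, was at 15.7, 18.2 and 19.3 CPM in sh_scramble −DHT and 15.3, 18.7 and 21.3 in sh_scramble +DHT. It was at 11.4, 12.4 and 26.9 CPM in sh_TMEFF2 −DHT and 33.4, 33.1 and 44.9 in sh_TMEFF2 +DHT. The sh_TMEFF2 +DHT libraries lay above all 9 others, and sh_TMEFF2 −DHT replicate 3 lay above the rest of its group and above every sh_scramble library. DHT raised OAS3 in sh_TMEFF2 by 1.14 (SE 0.27, adjusted p = 0.0159), while the change in sh_scramble was 0.06 (SE 0.27, adjusted p = 0.903). The difference of the responses was 1.08 (SE 0.38, adjusted p = 0.145), short of the threshold. It was called by DESeq2 (1.09, adjusted p = 0.0409) and without sh_TMEFF2 −DHT replicate 3 (1.59, adjusted p = 0.00315). With DHT, OAS3 was 1.01 higher in sh_TMEFF2 than in sh_scramble (SE 0.27, adjusted p = 0.0223).

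Single libraries bore on both OAS3 calls. The DHT call in sh_TMEFF2 was lost without sh_TMEFF2 −DHT replicate 1 (adjusted p = 0.0613), sh_TMEFF2 −DHT replicate 2 (adjusted p = 0.0703) or sh_TMEFF2 +DHT replicate 3 (adjusted p = 0.0688), with values of 0.92 to 0.99. The call between the lines was lost without sh_scramble +DHT replicate 1 (adjusted p = 0.0871), sh_scramble +DHT replicate 2 (adjusted p = 0.0555) or sh_TMEFF2 +DHT replicate 3 (adjusted p = 0.0755), with values of 0.86 to 1.04. Its relatives OAS1 and OAS2, neighbours on chromosome 12, had too few counts to show whether they shared the rise. OAS1 changed by 0.38 with DHT in sh_TMEFF2 (adjusted p = 0.634) on 10 to 49 counts per library over all groups. OAS2 had no test and was at 0.0514 to 0.757 CPM.

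SAMD9, a cytoplasmic restriction factor for poxviruses, was at 0.498, 0.462 and 0.636 CPM in sh_scramble −DHT and 0.908, 1.51 and 1.05 in sh_scramble +DHT. It was at 0.385, 0.974 and 0.464 CPM in sh_TMEFF2 −DHT and 0.741, 0.73 and 0.668 in sh_TMEFF2 +DHT. The sh_scramble groups did not overlap, at 8 to 31 counts per library over all groups. The rise of 1.11 (SE 0.37, adjusted p = 0.0431) was lost in 8 of the 12 fits that leave out 1 library, all but those without sh_scramble +DHT replicate 1 or 1 of the sh_TMEFF2 −DHT libraries, with adjusted p up to 0.166. DESeq2 gave an adjusted p of 0.078.

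The membrane proteins IFITM1, IFITM2 and IFITM3, which hinder virus entry, differed from each other. IFITM2 was at 3.76, 4.47 and 4.65 CPM in sh_scramble −DHT, 4.74, 5.76 and 7.85 in sh_scramble +DHT, 3.41, 4.34 and 3.71 in sh_TMEFF2 −DHT and 3.43, 3.97 and 3.43 in sh_TMEFF2 +DHT. With DHT the sh_TMEFF2 libraries lay below all sh_scramble ones, by −0.76 (SE 0.20, adjusted p = 0.02). Without sh_scramble +DHT replicate 3, the highest library, the value was −0.54 (adjusted p = 0.0821), and the call was also lost without sh_TMEFF2 +DHT replicate 1 (adjusted p = 0.0642) or replicate 3 (adjusted p = 0.0665). IFITM3 was −0.41 in the same comparison (SE 0.13, adjusted p = 0.053), also without overlap, and IFITM1 had only 3 to 20 counts per library. The 3 genes lie side by side on chromosome 11 and are near copies, so reads shared between them are an uncertainty of each value.

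The remaining effectors were not called. BST2, or tetherin, which holds budding virus at the cell surface, had 8 to 24 counts and DHT changes of −0.92 (adjusted p = 0.0833) and −0.68 (adjusted p = 0.272). IFI6, which protects cells from flaviviruses, was −0.60 in sh_TMEFF2 without DHT (adjusted p = 0.297), with the lines apart, and 0.02 with DHT. IFI35 ranged from 1.82 to 6.85 CPM with overlap in every comparison.

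ISG15 is a ubiquitin-like protein that is attached to other proteins through the E2 enzyme UBE2L6 and removed by USP18, which is also a brake on interferon receptors. UBE2L6 was at 3.71, 3.9 and 3.72 CPM in sh_scramble −DHT and 2.22, 2.05 and 1.85 in sh_scramble +DHT. It was at 4.71, 2.66 and 3.85 CPM in sh_TMEFF2 −DHT and 3.01, 2.15 and 2.18 in sh_TMEFF2 +DHT. The sh_scramble groups were well apart and the sh_TMEFF2 groups overlapped. The changes were −0.89 (SE 0.23, adjusted p = 0.0126) and −0.61 (SE 0.23, adjusted p = 0.0982), and they differed by 0.28 (adjusted p = 0.738). ISG15 ranged from 18.9 to 31.5 CPM with overlap in all comparisons. USP18 had positive DHT values in both lines, 0.34 (adjusted p = 0.0798) and 0.30 (adjusted p = 0.161).

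Of the transcription factors, IRF1 was the one called. It drives NLRC5, the immunoproteasome and many other interferon gamma targets. IRF1 was at 5.88, 5.81 and 6.71 CPM in sh_scramble −DHT and 1.92, 2.78 and 4.45 in sh_scramble +DHT. It was at 7.55, 7.48 and 7.89 CPM in sh_TMEFF2 −DHT and 4.86, 3.88 and 5.47 in sh_TMEFF2 +DHT. DHT libraries were below vehicle libraries in both lines without overlap, and sh_TMEFF2 was above sh_scramble without DHT. The falls were −1.01 (SE 0.24, adjusted p = 0.00859) in sh_scramble, called in every fit that left out 1 library, and −0.69 (SE 0.23, adjusted p = 0.0732) in sh_TMEFF2. The difference of the responses was 0.32 (SE 0.34, adjusted p = 0.709).

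STAT2, the partner of IRF9 in the type I interferon signal, was at 96.3, 85 and 89.5 CPM in sh_scramble −DHT and 86.6, 77 and 79.5 in sh_scramble +DHT. It was at 101, 99.4 and 89 CPM in sh_TMEFF2 −DHT and 94.5, 80.9 and 74.9 in sh_TMEFF2 +DHT, with overlap in every comparison and log2 values from −0.21 to 0.10. IRF3, the factor that nucleic acid sensors activate, was at 76.4, 65.4 and 64 CPM in sh_scramble −DHT and 69.4, 64.7 and 70.2 in sh_scramble +DHT. It was at 81.8, 79.5 and 78.8 CPM in sh_TMEFF2 −DHT and 65.1, 76.5 and 69.2 in sh_TMEFF2 +DHT. Without DHT the sh_TMEFF2 libraries lay above the sh_scramble ones, but the difference was 0.22 (adjusted p = 0.239). IRF7 and IRF9 stayed between −0.31 and 0.20 and were not called.

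DDX58, which encodes the RNA sensor RIG-I, was at 11.6, 10.5 and 14.5 CPM in sh_scramble −DHT and 8.93, 7.13 and 7.85 in sh_scramble +DHT. It was at 12.8, 12.5 and 10.6 CPM in sh_TMEFF2 −DHT and 12.7, 9.36 and 10.8 in sh_TMEFF2 +DHT. The sh_scramble +DHT libraries were the lowest of the 12. The change in sh_scramble was −0.62 (SE 0.16, adjusted p = 0.0112) and that in sh_TMEFF2 −0.13 (adjusted p = 0.643), with a difference of 0.49 (SE 0.22, adjusted p = 0.271). The call was lost without sh_scramble −DHT replicate 3 (−0.47, adjusted p = 0.0528) or sh_scramble +DHT replicate 2 (−0.54, adjusted p = 0.0505).

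IFIH1, the RNA sensor MDA5, had a DHT change of 0.42 in sh_TMEFF2 (adjusted p = 0.113), with vehicle and DHT libraries apart, and −0.06 in sh_scramble. PARP9 and its E3 ligase partner DTX3L, which sit head to head on chromosome 3, were among the steadiest members. PARP9 ran from 38.7 to 46.4 CPM over all 12 libraries and DTX3L from 43.5 to 52.5. PARP14, another ADP-ribosyltransferase, was −0.76 in sh_TMEFF2 without DHT (adjusted p = 0.262), and SP100, a nuclear body protein, had values from −0.24 to 0.10. None of these was called.

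**Figure D3:**
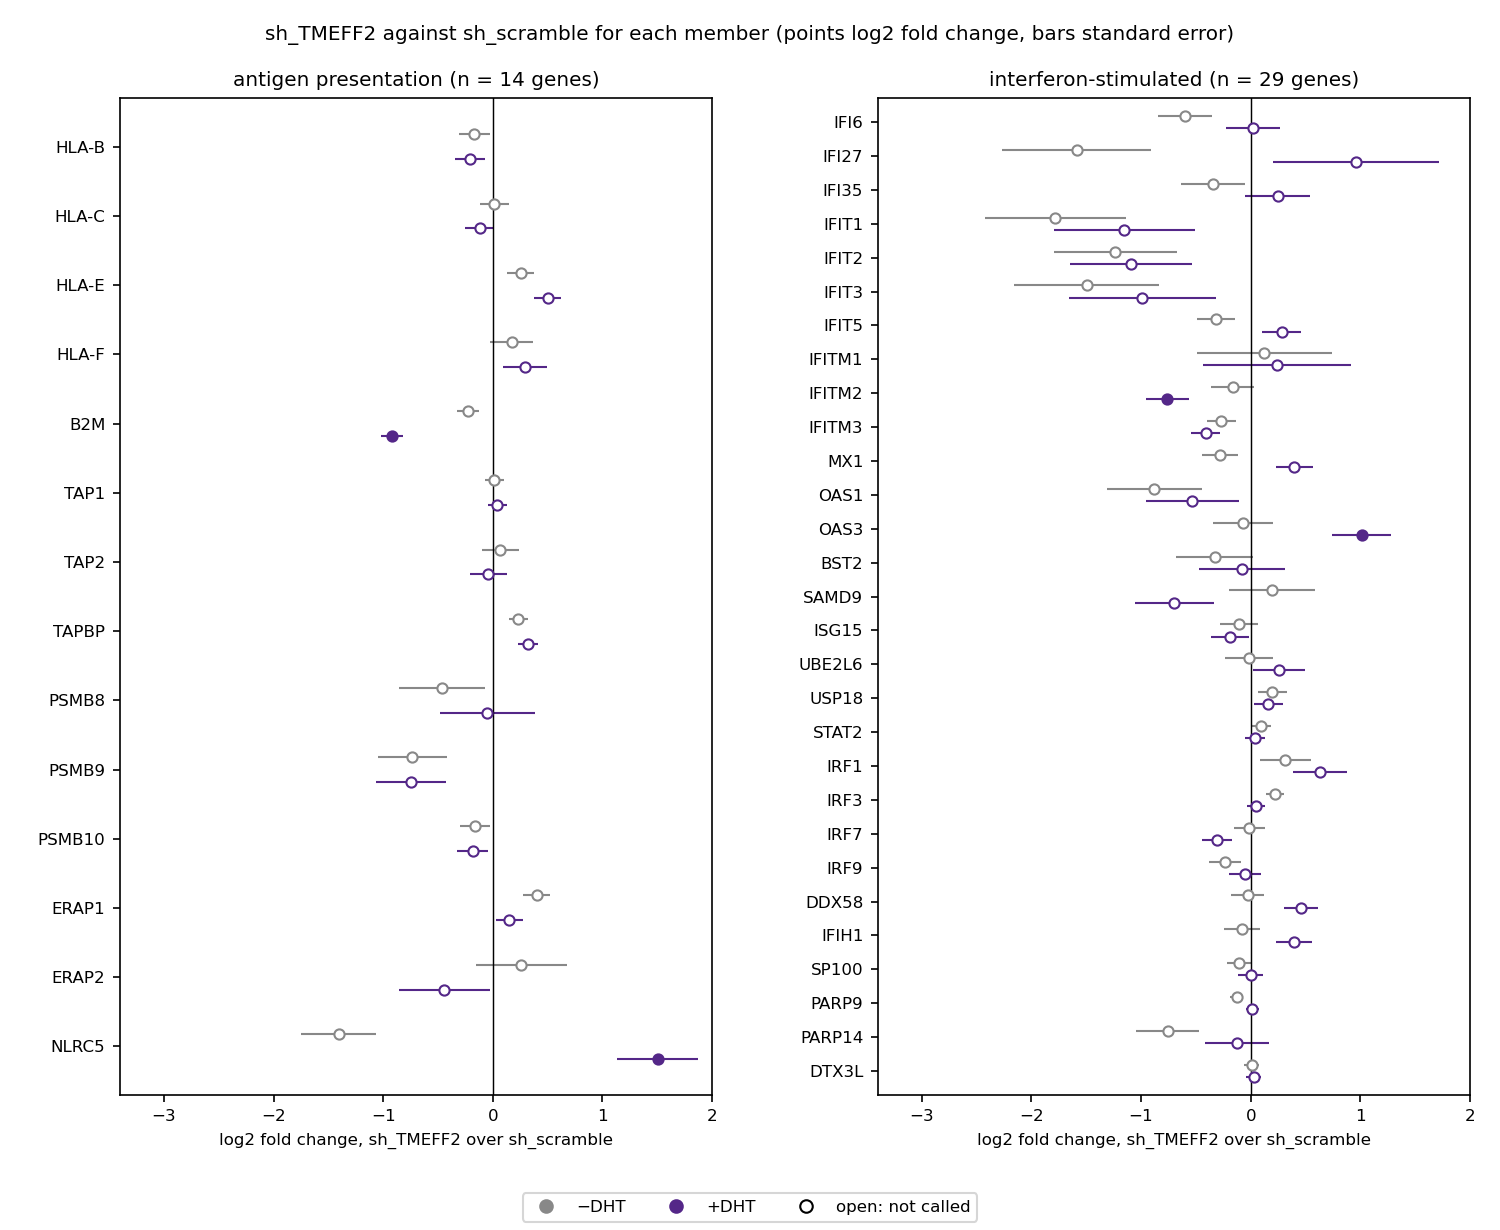
Log2 difference of sh_TMEFF2 from sh_scramble for each tested member without DHT (grey) and with DHT (purple), with standard errors as bars and filled points where the difference was called. NLRC5 lies at −1.40 without DHT and on the other side of 0 with it, and IFIT1, IFIT2 and IFIT3 lie between −1.78 and −0.99 with wide bars and open points.

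Taken by role, the difference between the lines without DHT was negative in 13 of 15 effectors, with a median of −0.33, and in 22 of 29 interferon-stimulated genes, with a median of −0.13 against −0.004 for all genes. Antigen presentation genes were split, 8 positive and 6 negative, with a median of 0.01. With no member called, these are counts of direction only. Libraries of the lines did not overlap for 11 members on the lower side, when 9.18% of all genes did so, and for 3 on the higher side, when 9.35% did so. With DHT the non-overlapping members were 5 lower and 6 higher, at backgrounds of 17% and 15.5%. The median of the 29 interferon-stimulated genes was then 0.02.

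For DHT in sh_scramble 14 members were lower without overlap and 4 higher, at backgrounds of 20.5% and 21.3%. In sh_TMEFF2 these were 6 and 2, at 15.7% and 15.6%. The response in sh_TMEFF2 was the higher one for 21 of 29 interferon-stimulated genes, with a median difference of 0.25 against 0.006 for all genes, and for 6 of 14 antigen presentation genes, with a median of −0.01. The 2 groups of genes were similar in their DHT change in sh_scramble, with medians of −0.14 for antigen presentation and −0.18 for the interferon-stimulated genes. In sh_TMEFF2 the medians were −0.20 and −0.02.

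The IFIT genes held the most negative values of the effectors without DHT. IFIT1, which binds RNA that lacks cap methylation, was at 4.48, 3.9 and 14.4 CPM in sh_scramble −DHT and 2.57, 2.25 and 11.5 in sh_scramble +DHT. It was at 1.3, 2.88 and 2.41 CPM in sh_TMEFF2 −DHT and 2.27, 3.19 and 1.87 in sh_TMEFF2 +DHT. The third repeat of both sh_scramble groups was the high one, and without DHT all sh_scramble libraries lay above all sh_TMEFF2 ones.

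IFIT2 and IFIT3, neighbours of IFIT1 on chromosome 10, had the same pattern. IFIT2 was at 5.57, 3.8 and 13.6 CPM in sh_scramble −DHT and 5.5, 2.64 and 15.7 in sh_scramble +DHT, against 2.78 to 4.43 in the sh_TMEFF2 libraries. IFIT3 was at 2.04, 1.23 and 7.05 CPM and 1.16, 0.927 and 4.8 in the same sh_scramble groups, against 0.979 to 1.3 in sh_TMEFF2. The third repeat stood 2.445 to 4.47 times above the higher of the other two for these 3 genes.

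Over all 15419 genes, 25 were at least 2-fold above both other repeats in both sh_scramble groups for repeat 3, and 3 of the 43 members were among them, IFIT1, IFIT2 and IFIT3. OASL, an interferon-stimulated gene outside the members, was another; it is named because it was seen to share the pattern. The third repeat was the highest of its group in both sh_scramble groups for 18 of 43 members, when 14.6% of all genes had this, against 5 members for repeat 1 and 2 for repeat 2. The differences of the lines for IFIT1 were −1.78 (SE 0.65, adjusted p = 0.238) without DHT and −1.15 (SE 0.64, adjusted p = 0.263) with it, and those for IFIT2 and IFIT3 were also not called. Whether the third repeats of sh_scramble came from another transduction than the others is not given in the labels.

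The spread within groups, pooled as an SD on the log2 scale, was 1.02 for IFI27, 0.888 for IFIT1, 0.885 for IFIT3 and 0.801 for IFIT2, all above that of at least 96.8% of the genes tested. The median over the members was 0.204, against 0.156 over all genes. PARP9, at 0.0426, was steadier than nearly all genes.

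**Figure D4:**
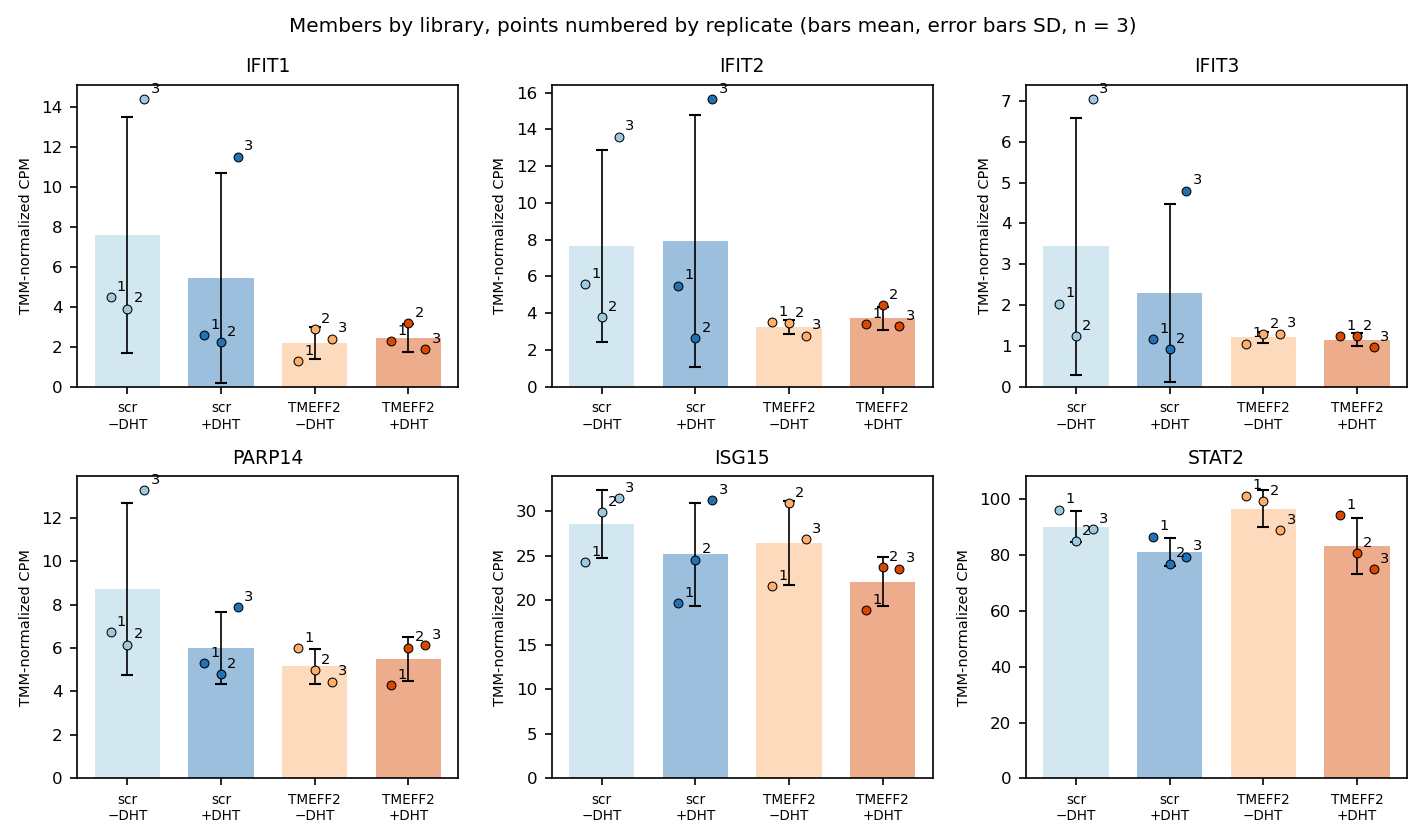
TMM-normalized CPM of 6 members by library, with points numbered by repeat, bars for the mean and error bars for the SD (n = 3). For IFIT1, IFIT2 and IFIT3 point 3 stands above points 1 and 2 in both sh_scramble groups, at 4.8 to 15.7 CPM; STAT2 shows no such library.

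Leaving out both sh_scramble libraries numbered 3 changed the counts. DHT in sh_scramble then gave 1 member higher (B2M), at a background of 5.4%, and 4 lower (HLA-E, NLRC5, IFIT5 and IRF1), at 5.57%. With DHT, 3 members were called higher in sh_TMEFF2 (HLA-E, IRF1 and OAS3; background 2.99%) and 1 lower (B2M; background 3.35%), and NLRC5 was at 1.32 (adjusted p = 0.073). DHT in sh_TMEFF2 gave OAS3 higher (background 3.2%) and IRF1 lower (background 1.44%). Without DHT 12 of 15 effectors were still negative between the lines, with a median of −0.34, and IFIT1, IFIT2 and IFIT3 lay between −0.92 and −0.43. With DHT those 3 genes then lay between −0.12 and 0.15.

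The interferon transcripts themselves were at or near 0. IFNA1, IFNB1, IFNG and IFNE had 0 counts in all 12 libraries, and IFNL1 and IFNK at most 1, where 3 counts correspond to 0.133 to 0.154 CPM. The receptor genes IFNAR1, IFNAR2, IFNGR1 and IFNGR2, named after their values were seen, were measured in every library, with at least 253 counts. JAK1 was at 9.28, 16.2 and 14.7 CPM in sh_scramble −DHT and 8.98, 8.35 and 7.15 in sh_scramble +DHT. It was at 17.1, 15 and 9 CPM in sh_TMEFF2 −DHT and 10.7, 14.5 and 12.1 in sh_TMEFF2 +DHT.

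JAK1 fell with DHT in sh_scramble by −0.71 (SE 0.24, adjusted p = 0.0477), without overlap, and its change in sh_TMEFF2 was −0.14 (adjusted p = 0.767). JAK2 fell by −0.69 in sh_scramble (adjusted p = 0.00177) and was at −0.25 in sh_TMEFF2 (adjusted p = 0.25). The differences between the lines' responses were 0.57 (adjusted p = 0.435) for JAK1 and 0.44 (adjusted p = 0.219) for JAK2, neither past the test. These were the 2 called of the 10 tested genes among 18 ligands, receptors, kinases and brakes. Both were lower with DHT in sh_scramble, when 6.45% of all genes were called lower. None of the 12 nucleic acid sensing genes outside the members was called in any comparison, and none of the 6 tested genes of the list of other class I and class II genes and their factors was.

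Among 25 tested interferon-stimulated genes outside the members, DHT in sh_scramble gave 2 calls higher and 1 lower, at backgrounds of 5.45% and 6.45%. DHT in sh_TMEFF2 gave 0, at backgrounds of 3.28% higher and 1.6% lower. Between the lines 1 was called higher without DHT, at a background of 0.298%. With DHT 1 was called higher and 2 lower, at backgrounds of 3.03% and 3.74%. HERC5, the ligase that attaches ISG15, was one of the risers, at 1.30 in sh_scramble (adjusted p = 0.000383) and 0.04 in sh_TMEFF2 (adjusted p = 0.933), with responses that differed by −1.27 (SE 0.28, adjusted p = 0.0228). Its relative HERC6 rose by 0.78 in sh_scramble (adjusted p = 0.00258) and was at 0.26 in sh_TMEFF2 (adjusted p = 0.317). HERC5 was −1.26 and HERC6 −0.76 in sh_TMEFF2 with DHT (adjusted p = 0.000917 and 0.00513). The other calls of this list, named after their values were seen, were in LGALS3BP, GBP2 and SAMHD1. LGALS3BP was −0.70 with DHT in sh_scramble (adjusted p = 0.00556) and 0.61 higher in sh_TMEFF2 with DHT (adjusted p = 0.0192), and GBP2 was 1.92 higher in sh_TMEFF2 without DHT (adjusted p = 0.0449). SAMHD1, which degrades deoxynucleotides, had a called difference of responses opposite in sign to that of HERC5, at 0.36 (SE 0.09, adjusted p = 0.0399). The ligase of the ISG15 system rose with DHT in sh_scramble while UBE2L6, its E2 enzyme, fell and ISG15 itself was not called.

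In the list of 9 peptide supply and loading genes outside the members, PDIA3, a thiol oxidoreductase of the peptide loading complex, rose with DHT by 0.67 in sh_scramble (adjusted p = 0.000113) and was at 0.08 in sh_TMEFF2 (adjusted p = 0.629). The responses differed by −0.59 (adjusted p = 0.0157), and with DHT PDIA3 was −0.96 in sh_TMEFF2 (adjusted p = 1.59e-05). CALR, a chaperone of the same complex, was −0.64 in sh_TMEFF2 with DHT (adjusted p = 0.000644), with a difference of responses of −0.56 (adjusted p = 0.0327). In this list 3 of 9 genes had a called negative difference of responses and 0 a positive one, at backgrounds of 3.29% and 1.65%. The third was the chaperone CANX (−0.41, adjusted p = 0.0145). B2M had the same direction as these chaperones, while the difference for TAPBP was 0.09 (adjusted p = 0.804). Of these 9 genes, 2 were called lower in sh_TMEFF2 with DHT (background 3.74%) and 1 was called higher with DHT in sh_scramble (background 5.45%). In either of the other comparisons 0 were called.

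Markers of other cell types were low. Leukocyte markers summed to 8.12 to 12.8 CPM, nearly all from PTPRC and CD68, while CD3E had at most 1 count and CD14 at most 7. By group this sum was 8.12 to 9.79 in sh_scramble −DHT, 9.69 to 12.4 in sh_scramble +DHT, 11.3 to 12.8 in sh_TMEFF2 −DHT and 11.1 to 12.2 in sh_TMEFF2 +DHT. With DHT in sh_scramble the 2 tested leukocyte markers went opposite ways, 1 called higher (0.92) and 1 called lower (−0.59). With DHT 1 of them was called higher in sh_TMEFF2 than in sh_scramble (0.65). The fibroblast sum, mainly COL1A1 with COL1A2, DCN and LUM at most at 13 counts, was 19.3 to 20.1 CPM in sh_scramble −DHT, 12.3 to 13.2 in sh_scramble +DHT, 22 to 31.7 in sh_TMEFF2 −DHT and 15.4 to 18 in sh_TMEFF2 +DHT. It was lower with DHT in both lines and higher in sh_TMEFF2 in both conditions without overlap, the group order of the HLA-E and IRF1 means, and COL1A1 was called lower with DHT in both lines (−0.61, adjusted p = 0.00336, and −0.68, adjusted p = 0.00435). The endothelial sum, mainly VWF, was 15.4 to 25 CPM in sh_scramble −DHT, 13.3 to 14.6 in sh_scramble +DHT, 19.3 to 27.1 in sh_TMEFF2 −DHT and 19.8 to 29.5 in sh_TMEFF2 +DHT. Of the 2 tested endothelial markers, 1 was called lower with DHT in sh_scramble (−0.64). With DHT 1 was called higher in sh_TMEFF2 than in sh_scramble (0.80). The basal sum (KRT5, KRT14 and TP63) was 0.049 to 0.136 CPM in sh_scramble −DHT and 0.879 to 1.77 in sh_scramble +DHT. It was 0 to 0.24 CPM in sh_TMEFF2 −DHT and 0.0463 to 0.502 in sh_TMEFF2 +DHT. KRT14, its 1 tested gene, had at most 29 counts. It was called higher with DHT in sh_scramble (4.78) and lower in sh_TMEFF2 with DHT (−2.61). KRT5 was at 0 and CDH5 at most at 1 count. The luminal sum given above was highest in sh_scramble +DHT, as B2M was. In that sum KLK3 alone ran from 255 to 7737 CPM over the libraries. The luminal markers were split: of 8, 4 were called higher and 2 lower with DHT in sh_scramble. The part of these markers in the member values was not tested.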

How the data were processed

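RNA from 12 LNCaP cultures (4 groups, 3 repeats each) was sequenced in 75 bp pairs. The authors trimmed the reads, ran kallisto 0.42.3 with bias correction on the GRCh38 transcriptome and deposited estimated counts per gene, scaled from TPM by transcript length with tximport; the annotation release and strand setting are not given in the sources used here. Each library has 2 deposited columns, which were summed and rounded. edgeR 4.0.16 (R 4.3.3) was run with TMM factors (0.955 to 1.04) and filterByExpr (minimum count 10, total 15), all 12 libraries sharing 1 estimate of the spread, 1 coefficient per group and no covariate, with Benjamini-Hochberg adjustment over 15419 genes. The limits of 0.05 and 1.5-fold are those of the study's methods. Alternatives were DESeq2 1.42.0, DESeq2 size factors in edgeR, limma-voom (limma 3.58.1), other filters, either column alone, a replicate block and each library left out. The scripts were tested on simulated data. Intervals were not computed for single libraries, and 3 counts were taken as the limit that a count of 0 allows, which covers counting error only.

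Groups came from the sample labels. The members and all lists were chosen with earlier results of these data known. All members are named; values in every library are given for members called in at least 1 comparison and for the 2 members of highest mean CPM in each subgroup, and genes outside the members are JAK1, TMEFF2 and, per list, the 2 called genes of smallest p, others being named with a reason. Repeats with the same number were checked for pairing by the correlation of their deviations from the group means over all genes tested. Gene positions are from GENCODE 44 on GRCh38 and promoters from RefSeq on GRCh38.p14. Symbols were matched to the annotation for all 44 members, DDX58 through its newer symbol.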

Additional observations from a re-analysis of the deposited data

Results flagged for a closer look

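The DHT responses of the lines differed by the test of the difference itself for 2 members. For B2M the response in sh_TMEFF2 was lower than that in sh_scramble by a log2 difference of −0.69 (edgeR's quasi-likelihood test, adjusted p = 0.0157). In the 12 fits that left out 1 library this value ran from −0.78 to −0.59, with adjusted p from 0.00932 to 0.0424, and it was −0.69 with an adjusted p of 0.055 without both sh_scramble libraries numbered 3.

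For NLRC5 the response in sh_TMEFF2 was higher by 2.91 (adjusted p = 0.0056). In the 12 fits that left out 1 library it ran from 2.65 to 3.31, with adjusted p from 0.00268 to 0.0189, and it was 2.74 (adjusted p = 0.0313) without both sh_scramble libraries numbered 3. Among the interferon and peptide loading genes outside the members, PDIA3, CALR, CANX and HERC5 had called differences in the direction of B2M. SAMHD1 had one in the direction of NLRC5 (0.36, adjusted p = 0.0399).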

How the results depend on the processing

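No called value of a member changed direction under any alternative run. B2M, NLRC5 and IRF1 with DHT in sh_scramble, B2M between the lines with DHT and both differences of responses kept their calls in every alternative that tested the gene, apart from the B2M difference of responses in the fit without both sh_scramble libraries numbered 3. Without DHT, DESeq2 and the fit without a filter each called 1 member lower in sh_TMEFF2 (NLRC5). With DHT, members called higher and lower each went from 2 to 1 with a mean above 5 CPM and with the second column of each library, and lower went to 1 without both of those sh_scramble libraries, an alternative chosen after seeing the data. For DHT in sh_scramble, members called higher went from 2 to 1 with DESeq2, no filter, the 5 CPM filter, either column alone, and without those 2 libraries, and members called lower went from 8 to 5 with the 5 CPM filter, 3 with the second column and 4 without those libraries. The 5 CPM filter removes genes, NLRC5 included, and 1 column holds fewer reads. The 2 columns of a library also differed beyond counting error, with a mean squared deviation 5.73 to 24.5 times that of counting alone. Between repeats of a group it was 13.4 to 30.9 times. What part fewer reads or this difference had in the lost calls was not tested. For DHT in sh_TMEFF2, members called higher went to 0 with the first column, and 1 was called lower (IRF1) with DESeq2, limma-voom, the replicate block, the second column and without those libraries. For the difference of responses, members called higher were 2 with DESeq2 (NLRC5 and OAS3), 0 with the 5 CPM filter and 3 with the replicate block, and members called lower 0 without those libraries.

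Leaving out 1 library at a time, members called lower without DHT ranged from 0 to 1 and higher stayed at 0. With DHT the ranges were 0 to 3 higher and 1 to 2 lower. DHT in sh_scramble gave 1 to 3 higher and 6 to 9 lower, and DHT in sh_TMEFF2 0 to 1 in each direction. The difference of responses gave 1 to 2 higher and 1 lower. The TMEFF2 difference ranged from −0.65 to −0.18 without DHT and from −0.58 to −0.24 with it. The cause of these changes was not tested.

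Over all genes, DESeq2 called 97 higher and 83 lower between the lines without DHT, against 46 and 42, and 479 and 726 for the difference of responses, against 254 and 507. Without a filter the counts without DHT were 88 and 69, and with the replicate block 73 and 71. The first column gave 20 and 26, and the second 27 and 23. For the difference of responses the replicate block gave 432 higher against 254, the first column gave 169 and 350 and the second 148 and 346. Without both sh_scramble libraries numbered 3 it was 150 and 320, and the count without DHT 30 higher. With 1 library left out, the counts without DHT ran from 14 to 73 higher and 17 to 44 lower, those for DHT in sh_TMEFF2 from 103 to 335 lower (247 with all libraries), and those for the difference of responses from 127 to 294 higher and 329 to 471 lower. No alternative moved the median of all genes by 0.1 or more.

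The same-numbered repeats were not taken as paired. Their deviations correlated between −0.00172 and 0.169 over 18 pairs, and in 33 of 36 comparisons a library correlated best with its own number, which is a hint from the data and not from the design. With the replicate number as a block the difference of responses was called higher for MX1 (0.70, adjusted p = 0.0489), NLRC5 and OAS3 (1.15, adjusted p = 0.0195) and the other counts of members were as reported except for IRF1 above. Members under about 30 counts per library (PSMB8, PSMB9, IFITM1, BST2, OAS2 and SAMD9) are limited by depth.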
